A study of Mus musculus with 9 samples.

Results

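Monocytes and tissue macrophages were followed through 35 genes chosen by name: markers of the lineage, of circulating monocytes, of skin-resident macrophages and of activated macrophages, the complement component C1q, and the Fc receptors with their adaptors. All 35 listed symbols were found among the 55401 features of the gene count matrix, and all 35 passed the filter on low counts and were among the 21925 genes tested. Macrophages of the dermis clear debris, sample proteins from blood and present antigen, and their upkeep depends on the receptor encoded by Csf1r and on its ligands, colony stimulating factor 1 and interleukin 34. Monocytes from blood enter inflamed skin through chemokine receptors and can take on macrophage genes there. In type 2 inflammation, interleukins 4 and 13 act on macrophages and raise genes such as Arg1, Chil3, Retnla and Mrc1.

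The libraries were made from ear RNA of C57 mice, 3 per group. Controls received absolute ethyl alcohol. The MC903 group received calcipotriol under its code name MC903; this analogue of vitamin D is painted on mouse skin to model atopic dermatitis. The remaining group received MC903 together with 200 mg/kg of paeonol, a plant phenol of peony bark. The series title places the study's question in keratinocytes, with TRPV3, NF-κB and CCL3. No group given paeonol alone was analysed here, and the sources used here do not give age, sex, dosing route or time of collection. The labels do not say that libraries of a group came from separate animals, so p-values measure the spread between these libraries only, and that spread may be technical.

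Library totals ran from 54.3 to 57.7 M estimated counts. Levels are given in CPM, the unit that scales each library to the same total, computed from the estimated counts after TMM scaling of the libraries. Changes are log2 differences from a fit of all 9 libraries in edgeR with their standard error (SE), and "rose" or "fell" means a Benjamini-Hochberg adjusted p under 0.05 in its quasi-likelihood F test. The median change of all tested genes was -0.015 for MC903 against control, 0.002 for paeonol against MC903 and -0.035 for paeonol against control. In controls the 8 keratinocyte markers summed to 16016 to 17786 CPM and the 35 macrophage members to 1732 to 1890 CPM.

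Most macrophage genes made up a larger share of the counts in MC903 ears than in controls. In ears that also received paeonol, nearly all made up a smaller share than with MC903 alone. The 35 members summed to 3274 to 3586 CPM in the MC903 libraries and to 1010 to 1550 CPM in the paeonol libraries, so the 3 groups did not overlap. Against control, 27 of 35 members rose in MC903 ears and 2 fell, Cx3cr1 and Retnla; over all genes tested, 23.0% rose, 23.8% fell and 46.8% passed in either direction. Against MC903, 31 of 35 fell with paeonol and 1 rose, Cx3cr1; over all genes 14.3% fell, 15.3% rose and 29.7% passed in either direction. The same shares over all genes stand behind the counts of every other list below. The median change of the members was 0.88 for MC903 against control and -1.44 for paeonol against MC903. These 2 comparisons share the MC903 libraries, so opposite signs in them are not independent of each other. In RNA from whole tissue, a different number of cells and a different amount of RNA per cell cannot be told apart. CPM is a share of each library, so a gain or loss of other tissue cannot be told apart from these either.

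**Figure D1:**
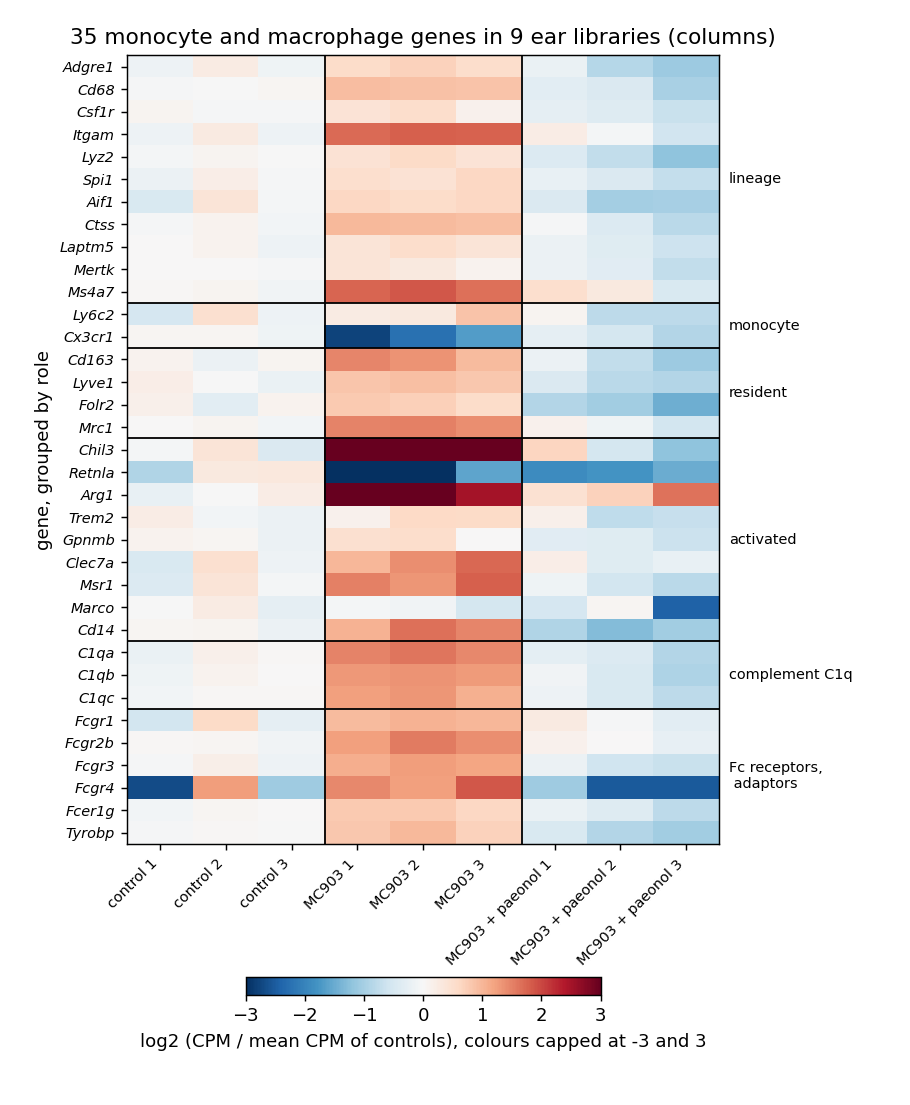
Level of each of the 35 genes (rows, grouped by role) in each of the 9 libraries (columns), as log2 of CPM over the mean CPM of the controls, with colours capped at -3 and 3. For 28 genes all 3 MC903 libraries lay above all 3 controls (red), and for Cx3cr1 and Retnla below them (blue). Over all genes tested, 28.3% lay above in this way and 29.8% below. The third paeonol library is the lowest of all 9 for 26 genes.

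Lineage genes were abundant in control ears. Per kilobase of annotated exon, Lyz2, the lysozyme of phagocytes, stood first among the members at 366 ± 18.1 CPM per kb (SD, n = 3) in controls, followed by Ctss, a lysosomal protease, at 107 ± 7.69. C1qb at 63.5 ± 5.08, C1qa at 54.2 ± 6.29 and Tyrobp at 53.9 ± 1.19 CPM per kb came next, and C1qa differed from neither C1qb nor Tyrobp beyond the spread. Chil3 at 0.958 ± 0.279 and Cx3cr1 at 0.809 ± 0.057 CPM per kb were the lowest members in controls. In MC903 ears Chil3 stood at 47.1 ± 18.7 CPM per kb, near Mrc1 at 50.7 ± 2.36, while Cx3cr1 remained last at 0.181 ± 0.0687.

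Of 11 lineage genes, 10 rose in MC903 ears and all 11 fell with paeonol against MC903, with median changes of 0.59 and -1.25. Itgam, the integrin CD11b of myeloid cells, measured 17.4, 23.3 and 17.3 CPM in controls, 62.7, 66.8 and 66.1 in MC903 and 22.6, 18.5 and 13.0 with paeonol. The MC903 libraries stood far above both other groups, which overlapped. Itgam rose by 1.75 (SE 0.19, adjusted p 4.24e-05) and fell by 1.85 on the log2 scale with paeonol (SE 0.19, adjusted p 9.22e-05). Ms4a7, a membrane protein of mature macrophages, moved from 11.2 to 12.6 CPM in controls to 37.9 to 43.5 in MC903 and 8.76 to 17.1 with paeonol (1.75 ± 0.20 SE, then -1.59 ± 0.20). Itgam and Ms4a7 were the 2 lineage genes with the largest MC903 change.

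Csf1r, the receptor on which macrophage survival depends, changed less. Its controls measured 139, 128 and 127 CPM, its MC903 libraries 173, 190 and 144, and its paeonol libraries 109, 100 and 81.8. No groups overlapped, and the third MC903 library was the one closest to the controls. Csf1r rose by 0.36 (SE 0.12, adjusted p 0.025) and fell by 0.80 on the log2 scale with paeonol (SE 0.12, adjusted p 0.00054). Cd68, a lysosomal glycoprotein, measured 42.7 to 45.3 CPM in controls, 78.6 to 82.8 in MC903 and 22.2 to 34.9 with paeonol (0.88 ± 0.13 SE, then -1.44 ± 0.13). Adgre1, which encodes the macrophage antigen F4/80, measured 22.3, 29.6 and 22.6 CPM in controls, 36.5, 40.2 and 35.6 in MC903 and 21.6, 13.8 and 11.7 with paeonol.

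The other lineage genes moved the same way by smaller or similar amounts. Lyz2 rose by 0.47 and Spi1, which encodes the myeloid transcription factor PU.1, by 0.53. Aif1, the actin-binding protein Iba1, rose by 0.59, Ctss by 0.94 and Laptm5, a lysosomal protein of blood cells, by 0.45. Mertk, a receptor for engulfing dying cells, measured 24.1 to 25.1 CPM in controls and 26.7 to 32.1 in MC903, a difference of 0.27 that did not pass (adjusted p 0.112, edgeR). With paeonol against MC903 these 6 changes ran from -1.37 for Aif1 to -0.67 for Mertk. The MC903 call of 4 genes was lost when single libraries were left out, while their differences kept their direction. Adgre1 did not pass without control 1, control 3, any MC903 library or paeonol 2 (log2 0.52 to 0.63, adjusted p 0.0504 to 0.125). Lyz2 did not pass without any one of the controls or MC903 libraries or paeonol 2 (0.42 to 0.51, adjusted p 0.0653 to 0.125). Aif1 lost its call without control 1, control 3 or any MC903 library (0.40 to 0.61, adjusted p 0.0736 to 0.145). Csf1r lost its call without control 2, control 3, MC903 1 or MC903 2 (0.27 to 0.35, adjusted p 0.0706 to 0.0993). Mertk passed for MC903 without paeonol 3 (0.0333). Scaling also mattered: with library totals in place of TMM, several lineage rises did not pass in edgeR. These were Adgre1 (adjusted p 0.164), Csf1r (0.29), Lyz2 (0.24), Spi1 (0.0676), Aif1 (0.161) and Laptm5 (0.0956). Their differences then ran from 0.17 for Csf1r to 0.4 for Adgre1 and Aif1.

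The promoters of the members were searched for the core bound by PU.1, because Spi1 is itself a member and most members moved together. Windows of 300 bases (250 before to 50 after each start, RefSeq on GRCm38.p6) were at hand for 26 of the 35 members; Adgre1, Arg1, C1qa, Cd14, Csf1r, Lyve1, Msr1, Spi1 and Tyrobp had none. The letters GAGGAAGT occurred on either strand in the windows of 5 of the 26 members (19.2%), against 3.69% of 27025 genes with a window. The looser GAGGAA, which every GAGGAAGT contains, occurred in 17 of 26 (65.4%), against 31.3% of all genes. Of the members with a window, 12 of 18 that rose in MC903 ears, 1 of 2 that fell and 4 of 6 that did not pass held at least one match. The stretches printed here lie before the start of C1qb, C1qc and Mrc1, which rose, of Fcgr4, whose MC903 difference did not pass, and of Retnla, which fell. C1qc, Fcgr4 and Retnla hold the longer motif, as do Ctss and Ly6c2, which are not printed. Mrc1 holds further matches of the looser motif that are not shown. Each stretch reads 5′ to 3′ on the strand of its gene, with the match or its reverse complement in capitals.
C1qb: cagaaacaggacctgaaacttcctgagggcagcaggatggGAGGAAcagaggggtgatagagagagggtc
C1qc: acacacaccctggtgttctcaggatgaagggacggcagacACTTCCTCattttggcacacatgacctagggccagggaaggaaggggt
Fcgr4: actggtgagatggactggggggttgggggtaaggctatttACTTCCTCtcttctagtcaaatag
Mrc1: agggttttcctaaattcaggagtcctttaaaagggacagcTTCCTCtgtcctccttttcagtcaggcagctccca
Retnla: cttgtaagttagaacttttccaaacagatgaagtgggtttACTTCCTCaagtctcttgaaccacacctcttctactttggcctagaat

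On GRCm38.p6 the stretch of C1qb is chr4:136886201-136886270 and that of C1qc is chr4:136893062-136893149, both on the minus strand. The stretch of Fcgr4 is chr1:171018862-171018925, that of Mrc1 is chr2:14229339-14229413 and that of Retnla is chr16:48842371-48842458, all on the plus strand. The capitals begin at -30 from the start in C1qb, -195 in C1qc, -24 in Fcgr4, -35 in Mrc1 and -198 in Retnla. A match is a description of these letters, not evidence of binding, and motif and direction of change were not tested against each other.

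Markers of resident macrophages rose as a group. All 4, the haemoglobin scavenger receptor Cd163, the hyaluronan receptor Lyve1, the folate receptor Folr2 and the mannose receptor Mrc1, rose in MC903 ears, and all 4 fell with paeonol, with median changes of 1.06 and -1.71. Together they summed to 238 to 259 CPM in controls, 538 to 623 in MC903 and 141 to 229 with paeonol. Mrc1 measured 118, 124 and 111 CPM in controls, 330, 334 and 306 in MC903 and 127, 107 and 79.8 with paeonol. The MC903 libraries of Mrc1 lay above both other groups, which overlapped. Mrc1 rose 2.75-fold (log2 1.46, SE 0.14, adjusted p 2.09e-05) and fell by 1.63 on the log2 scale with paeonol (SE 0.14, adjusted p 3.66e-05).

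Cd163 measured 70.7, 58.2 and 69.7 CPM in controls, 183, 169 and 128 in MC903 and 58.9, 40 and 31.1 with paeonol. Its rise was 1.27 (SE 0.24, adjusted p 0.00294) and its fall 1.89 on the log2 scale (change -1.89, SE 0.24, adjusted p 0.000879). Lyve1 measured 51.4, 44.5 and 38.9 CPM in controls, 79.8, 84.5 and 78.2 in MC903 and 33.3, 25.7 and 24.3 with paeonol. Folr2 measured 19.2, 14 and 18.5 CPM in controls, 29.9, 28.4 and 25.3 in MC903 and 9.36, 8.41 and 6.25 with paeonol. For Lyve1 and Folr2 the 3 groups did not overlap at all, with the paeonol libraries lowest. Lyve1 changed by 0.85 and then -1.54, and Folr2 by 0.69 and then -1.80. Against control, Lyve1 (-0.69, adjusted p 0.00189) and Folr2 (-1.11, adjusted p 0.000511) were lower with paeonol, while Cd163 (-0.61, adjusted p 0.092) and Mrc1 (-0.16, adjusted p 0.421) did not pass. Cd163 did pass as lower than control in DESeq2 (adjusted p 0.00876), with library totals (0.0471) and without paeonol 1 (-0.88, adjusted p 0.0059).

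Set against Csf1r in the same library, the resident markers did not keep a constant ratio. The count ratio of Mrc1 to Csf1r was 0.846 to 0.968 in controls, 1.75 to 2.12 in MC903 and 0.975 to 1.16 with paeonol. That of Cd163 was 0.454 to 0.547, 0.886 to 1.06 and 0.38 to 0.538. That of Folr2 was 0.109 to 0.146 in controls, 0.149 to 0.175 in MC903 and 0.0764 to 0.0856 with paeonol. That of Lyve1 was 0.305 to 0.37, 0.444 to 0.542 and 0.256 to 0.304. Such shifts were not particular to resident markers. The ratios of Cd68, C1qa, Chil3, Msr1, Clec7a and Cd14 were also higher in all MC903 libraries than in all controls. For C1qa they were 0.355 to 0.485 in controls and 0.91 to 1.05 in MC903. The ratios of Adgre1, Trem2, Ly6c2 and Fcgr4 overlapped between these groups, and that of Cx3cr1 was lower in MC903. Gpnmb kept a ratio of 0.416 to 0.489 in all 9 libraries. These ratios are given as a description of the libraries and were not tested.

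Lymphatic vessels express Lyve1 as well. Of 6 other lymphatic markers, 4 fell in MC903 ears and 1, Pdpn, rose; they summed to 284 to 344 CPM in controls and 204 to 224 in MC903. Prox1, the lymphatic transcription factor, fell from 9.02 to 13.0 CPM to 5.37 to 7.82 (log2 change -0.76, adjusted p 0.00406) while Lyve1 rose. With paeonol against MC903, 2 of the 6 fell and the sum was 150 to 230 CPM; the part of lymphatic vessels in the Lyve1 level was not tested.

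**Figure D2:**
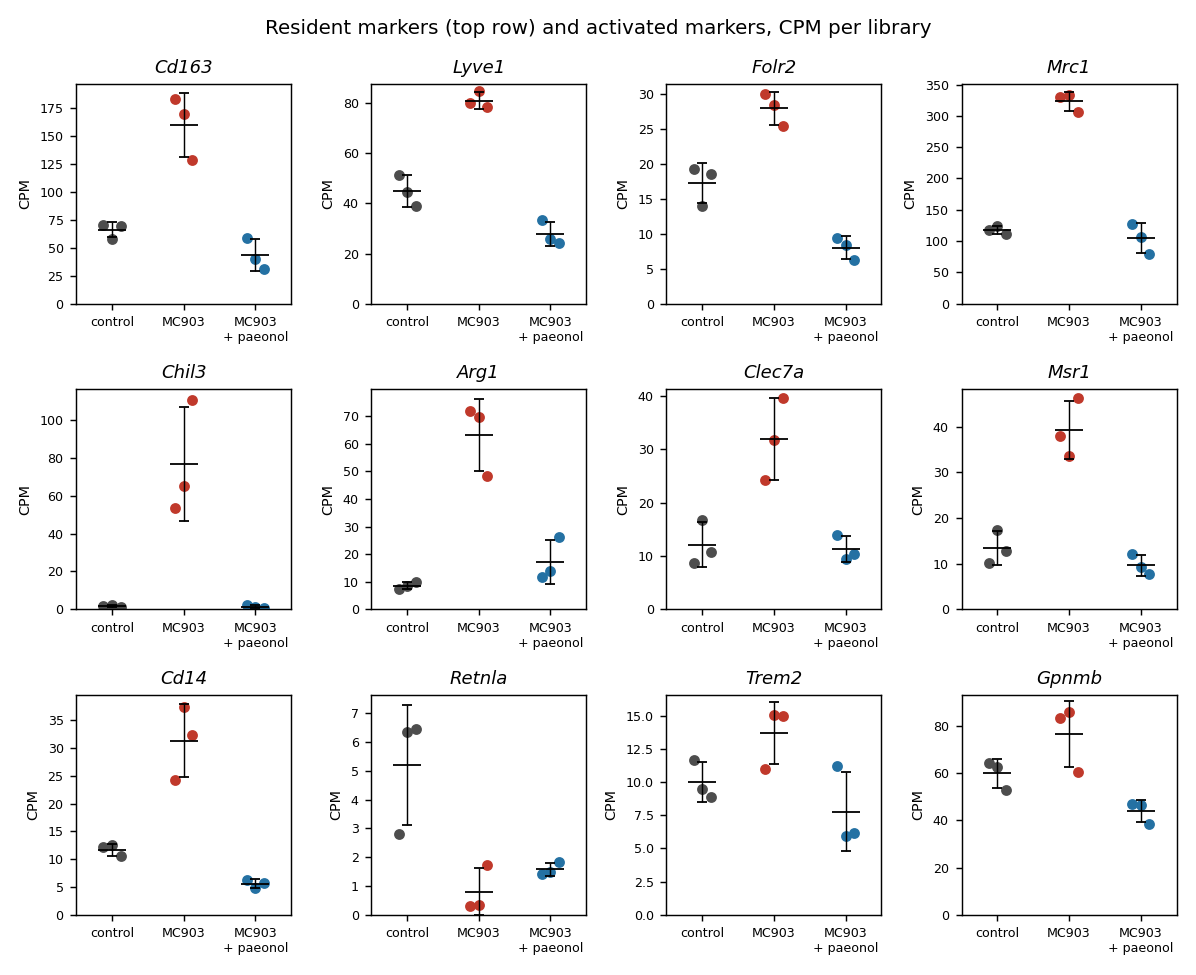
CPM of 4 resident markers (top row) and 8 of the 9 activated markers in each library, with the mean (bar) and SD (whiskers, cut at 0) of each group of 3. The 3 MC903 libraries lie above all others for the 4 resident markers and for Chil3, Arg1, Clec7a, Msr1 and Cd14, and Retnla is the reverse against control.

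Markers of activated macrophages were less uniform than the resident ones. Of 9, Chil3, Arg1, Clec7a, Msr1 and Cd14 rose in MC903 ears, Retnla fell, and Trem2, Gpnmb and Marco did not pass. With paeonol against MC903, 7 of 9 fell, and Retnla and Marco did not pass. The median changes of the 9 were 1.40 and -1.50.

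Chil3, the chitinase-like protein Ym1, made the largest change of any member. It measured 1.49, 2.05 and 1.15 CPM in controls, 53.7, 65.5 and 111 in MC903, and 2.42, 1.09 and 0.671 with paeonol. The paeonol and control libraries overlapped and every MC903 library was far above them. The rise was 49.1-fold (log2 5.62, SE 0.52, adjusted p 0.000105) and the fall 54.7-fold (log2 -5.77, SE 0.53, adjusted p 0.000252). Its near-identical neighbour gene Chil4 was listed at 0 in all controls and at 0.381 to 0.666 CPM in MC903; how reads shared by the 2 genes were assigned is uncertain.

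Arg1, arginase 1, measured 7.30, 8.38 and 9.85 CPM in controls, 71.9, 69.8 and 48.3 in MC903, and 11.6, 13.8 and 26.2 with paeonol. The groups did not overlap, and Arg1 was the one member that was higher with paeonol than in controls (log2 change 1.01, SE 0.32, adjusted p 0.0462). It rose 7.44-fold in MC903 (log2 2.90, SE 0.33, adjusted p 0.000205) and fell by 1.88 on the log2 scale with paeonol against MC903 (SE 0.32, adjusted p 0.00322). The third paeonol library was the highest of its group for Arg1, whereas it was the lowest of its group for 28 of 35 members. Arg1 is also made by stressed keratinocytes, and that library was likewise highest of the paeonol group for Krt6a, at 2070 CPM against 1130 and 1540, and for Krt16, at 4410 against 2380 and 3100; the part of keratinocytes in the Arg1 level was not tested. The mitochondrial form Arg2 rose from 1.55 to 1.95 CPM to 3.56 to 5.60 in MC903.

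Cd14, the lipopolysaccharide co-receptor, measured 12.2, 12.5 and 10.5 CPM in controls, 24.2, 37.3 and 32.4 in MC903 and 6.31, 4.80 and 5.69 with paeonol. No groups overlapped, and the paeonol libraries were the lowest. Cd14 rose by 1.41 (SE 0.16, adjusted p 2.85e-05), fell by 2.48 on the log2 scale with paeonol (SE 0.17, adjusted p 4.42e-06) and was 2.10-fold lower than in controls (log2 -1.07, adjusted p 0.00066). Msr1, the scavenger receptor A, measured 10.1 to 17.4 CPM in controls, 33.7 to 46.3 in MC903 and 7.69 to 12.2 with paeonol (1.55 ± 0.22 SE, then -2.02 ± 0.23). Clec7a, the beta-glucan receptor dectin-1, measured 8.77 to 16.8, 24.3 to 39.7 and 9.43 to 14 CPM (1.40 ± 0.27 SE, then -1.50 ± 0.27).

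Retnla, which encodes the resistin-like molecule RELMα, went the other way. It measured 2.80, 6.35 and 6.46 CPM in controls, 0.313, 0.333 and 1.74 in MC903, and 1.41, 1.49 and 1.84 with paeonol. Every MC903 library was below every control, and the paeonol libraries overlapped the MC903 range through the third MC903 library. Retnla was 6.49-fold lower in MC903 (log2 -2.70, SE 0.64, adjusted p 0.00675), and its difference of 0.98 with paeonol did not pass (adjusted p 0.289). Without the third MC903 library that difference was 2.28 and passed (adjusted p 0.00324). Every paeonol library was also below every control, but this difference of -1.72 did not pass in edgeR (adjusted p 0.061). It passed in DESeq2 (0.0088), with library totals (0.04), a fit of 2 groups (0.00513) and counts divided by 4 (0.0261). It also passed without control 1 or any one MC903 library (0.0029 to 0.0461). White fat also expresses Retnla, and all 7 adipocyte markers fell in MC903 ears, with a sum of 278 to 368 CPM in controls, 153 to 191 in MC903 and 157 to 187 with paeonol; the part of fat in the Retnla level was not tested. Retnlb was at 0 to 0.131 CPM in all libraries.

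Trem2, a lipid receptor, measured 11.7, 9.45 and 8.89 CPM in controls, 11, 15.1 and 15.0 in MC903 and 11.2, 5.92 and 6.15 with paeonol. All 3 groups overlapped, and its fall of 0.82 on the log2 scale with paeonol (SE 0.24, adjusted p 0.026) did not pass without MC903 2, MC903 3, paeonol 2 or paeonol 3 (0.0836 to 0.0956). Its MC903 difference of 0.45 (adjusted p 0.153) passed without paeonol 1 (0.0383). Gpnmb, a glycoprotein of phagocytes and melanocytes, measured 53.0 to 64.1 CPM in controls, 60.4 to 85.8 in MC903 and 38.5 to 47.0 with paeonol (0.35, adjusted p 0.0562, then -0.80, adjusted p 0.00161). The MC903 difference of Gpnmb passed without MC903 3 (0.50, adjusted p 0.00344) or paeonol 3 (0.0487). With all libraries it also passed in DESeq2 (adjusted p 0.0252), with DESeq2 size factors (0.0498), with a mean CPM of at least 1 (0.0438) and with counts divided by 4 (0.0473). Melanocytes express Gpnmb too, and their 7 markers summed to 77.4 to 87.8 CPM in controls, 91.9 to 125 in MC903 and 106 to 126 with paeonol, and 1 of them, Mitf, fell with paeonol against MC903; the part of melanocytes in the Gpnmb level was not tested. Marco, a scavenger receptor, lay between 0.518 and 3.31 CPM in all 9 libraries and passed in no comparison.

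The 3 chains of C1q, the recognition molecule of the classical complement path, are encoded side by side on chromosome 4 of GRCm38, C1qb at 136880129 to 136886187, C1qc at 136889804 to 136893065 and C1qa at 136895917 to 136898803. All 3 rose in MC903 ears and all 3 fell with paeonol. C1qa measured 49.3, 62.2 and 57.8 CPM in controls, 157, 173 and 152 in MC903 and 45.8, 42.4 and 30.9 with paeonol, and no groups overlapped. C1qa rose 2.85-fold (log2 1.51, SE 0.14, adjusted p 1.62e-05) and fell 4.05-fold (log2 -2.02, SE 0.14, adjusted p 1.26e-05). C1qb changed by 1.3 and -1.76, and C1qc by 1.21 and -1.66. All 3 chains were lowest in the third paeonol library, where C1qb measured 36.6 and C1qc 38.5 CPM.

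Of 6 Fc receptors and adaptors, 5 rose in MC903 ears and all 6 fell with paeonol. Fcgr2b, the inhibitory receptor for IgG, measured 67.0, 67.6 and 60.7 CPM in controls, 153, 191 and 171 in MC903 and 70.8, 65.8 and 54.8 with paeonol. The paeonol libraries overlapped the controls, and the MC903 libraries were above both. Fcgr2b changed by 1.40 (SE 0.10, adjusted p 1.68e-06), then by -1.43 (SE 0.10, adjusted p 6.74e-06), which left -0.03 against control (adjusted p 0.869). The activating receptor Fcgr3 changed by 1.18 and -1.64, and the high-affinity receptor Fcgr1 by 0.99 and -1.0. The shared signalling chain Fcer1g changed by 0.73 and -1.18, and the adaptor Tyrobp (DAP12) by 0.82 and -1.59. The fall of Fcgr1 did not pass without paeonol 2 (0.0524) or paeonol 3 (0.0515).

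Fcgr4, a further activating receptor, changed its calls when single libraries were left out. It measured 0.528, 8.04 and 1.61 CPM in controls, 9.26, 8.00 and 12.3 in MC903 and 1.61, 0.590 and 0.594 with paeonol. The second control lay within the MC903 range, and the difference of 1.54 did not pass (adjusted p 0.21); without that control it was 3.21 (adjusted p 0.00276). The fall with paeonol (log2 -3.40, SE 0.99, adjusted p 0.039) did not pass without control 3, any MC903 library or any paeonol library (0.0503 to 0.128). In those fits the difference was -4.05 to -3.15. The second control was the highest of its group for 24 of 35 members.

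Neither of the 2 monocyte genes was among those that rose with MC903. Ly6c2, the surface marker of inflammatory monocytes, measured 6.39, 12.8 and 8.18 CPM in controls, 10.8, 11.2 and 16.4 in MC903 and 9.61, 5.31 and 5.27 with paeonol. In the edgeR fit described above it passed in no comparison (0.49, adjusted p 0.236, then -0.92, adjusted p 0.0526, and against control -0.44, adjusted p 0.344). The difference between paeonol and MC903 passed without control 1 (0.0399), control 2 (0.0254) or paeonol 1 (-1.27, adjusted p 0.0123). With all libraries it also passed in DESeq2 (adjusted p 0.00847), with a fit of 2 groups (0.0351), a mean CPM of at least 1 (0.0452) and counts divided by 4 (0.0457). Every paeonol library of Ly6c2 lay below every MC903 library. Its near-identical neighbour Ly6c1, which vessels express, measured 86.1 to 138 CPM, and how shared reads were assigned is likewise uncertain. Cx3cr1, the fractalkine receptor of patrolling monocytes and several tissue macrophages, measured 3.79, 3.79 and 3.35 CPM in controls, 0.529, 0.776 and 1.14 in MC903 and 3.00, 2.53 and 1.97 with paeonol. All MC903 libraries lay below all others. Cx3cr1 was 4.45-fold lower in MC903 ears (log2 -2.15, SE 0.30, adjusted p 0.000121) and 3.06-fold higher with paeonol than without (log2 1.61, SE 0.30, adjusted p 0.00183).

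**Figure D3:**
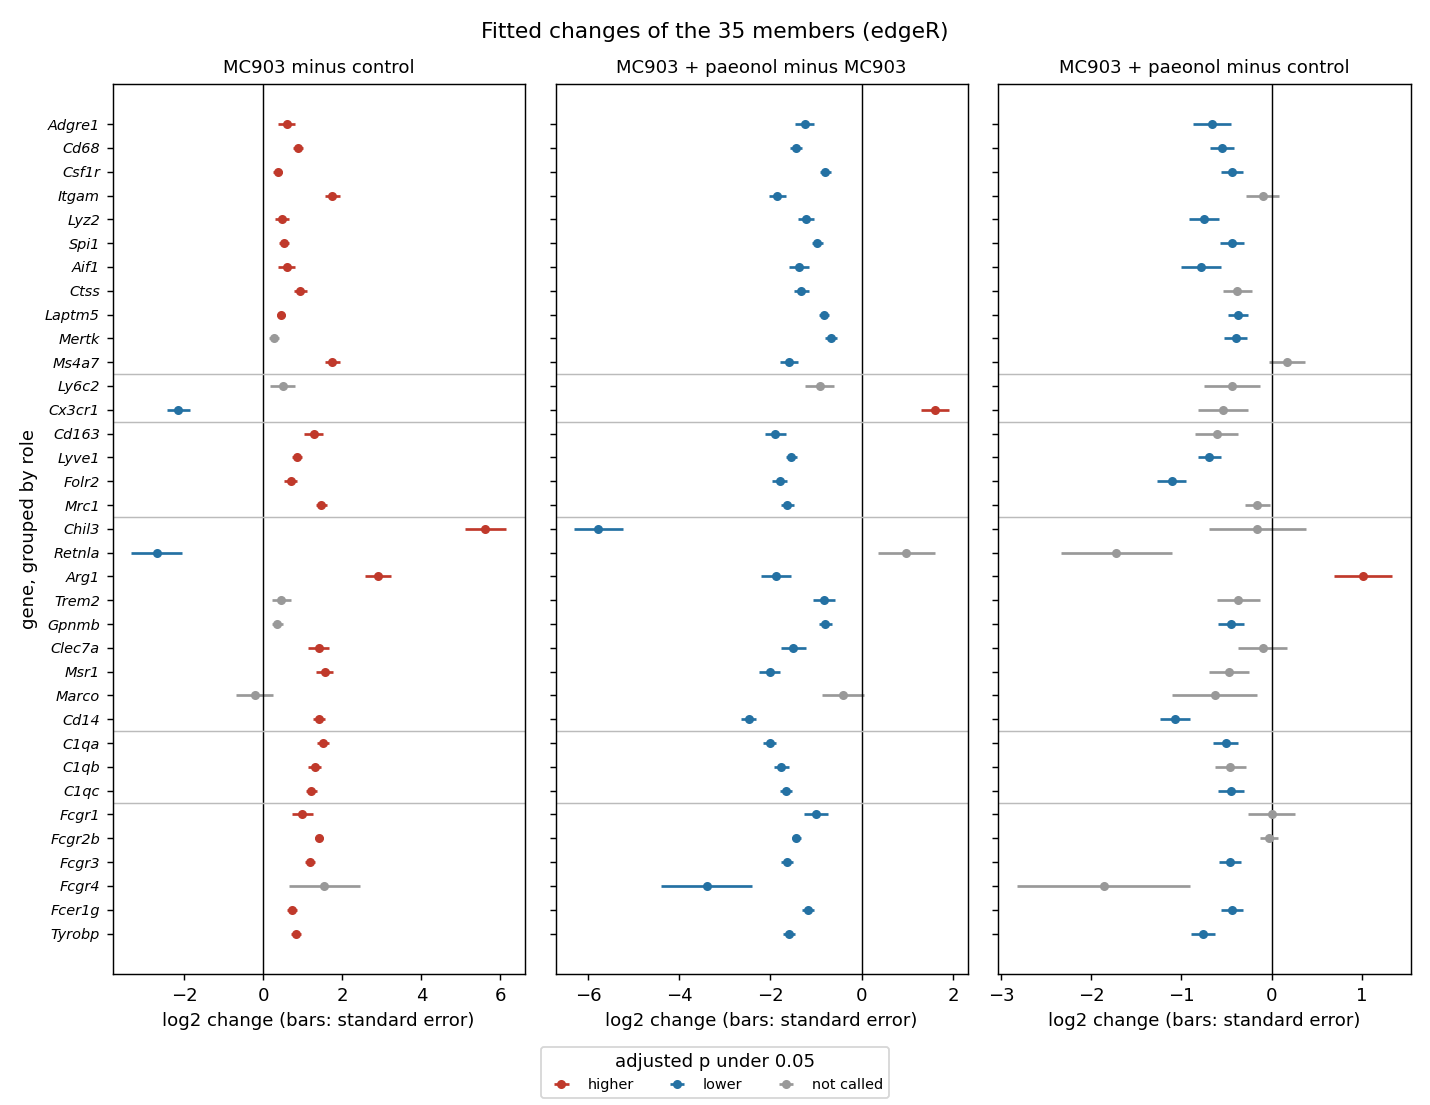
Log2 change of each of the 35 genes (rows, grouped by role) with its standard error, for MC903 against control, paeonol against MC903 and paeonol against control; red marks genes that rose, blue genes that fell and grey genes that did not pass. The left panel holds 27 red and 2 blue points, the middle panel 1 red and 31 blue, and the right panel 1 red and 17 blue.

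With paeonol, macrophage genes were not only lower than in MC903 ears but for many members lower than in controls. Of 35 members, 17 were lower and 1, Arg1, higher, against 14.5% lower, 16.3% higher and 30.9% in either direction over all genes. The median change of the members was -0.45. Such a deficit was not particular to the members. Lower than control with paeonol were 5 of 6 blood vessel markers (median -0.67) and 5 of 6 lymphatic markers (-0.63). So were 5 of 7 fibroblast markers (-0.78), 6 of 7 adipocyte markers (-1.22) and 20 of 20 muscle genes (-1.16). In the other direction, 8 of 8 keratinocyte markers (1.63) and 4 of 7 melanocyte markers (0.51) were higher. Among the members, the 6 largest differences below control that passed were Folr2 (-1.11), Cd14 (-1.07), Aif1 (-0.78), Tyrobp (-0.76), Lyz2 (-0.75) and Lyve1 (-0.69). Itgam, Ms4a7, Chil3, Mrc1, Fcgr1, Fcgr2b and Clec7a, which all rose with MC903, lay within 0.17 of control on the log2 scale and did not pass; without paeonol 3, Ms4a7 was higher than control by 0.40 (adjusted p 0.0239). The count of 17 was 7 without control 2, 11 without control 3 and 9 without either paeonol 2 or paeonol 3; Cd68, Lyz2, Lyve1, Folr2, Cd14 and Tyrobp were called without each of the 9 libraries in turn. Arg1 did not pass without any one of the controls, MC903 1, MC903 2, paeonol 2 or paeonol 3 (0.0537 to 0.135), and library totals in place of TMM gave 21 lower members and lost the Arg1 call.

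The 3 paeonol libraries were graded. The first was the highest of the group for 32 of 35 members and the third the lowest for 28, and the third was the lowest of all 9 libraries for 26. Their members summed to 1550, 1275 and 1010 CPM. Blood vessel markers summed to 206, 176 and 151 CPM in the same libraries, and B cell markers to 9.64, 11.7 and 1.46. The part of these differences between libraries in the results was not tested.

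The 2 ligands of the Csf1r receptor moved in opposite directions. Csf1 measured 74.3, 89.7 and 65.3 CPM in controls, 102, 111 and 115 in MC903 and 75.6, 81.6 and 69.6 with paeonol (0.52, adjusted p 0.00193, then -0.53, adjusted p 0.00303). Il34, the ligand made by keratinocytes on which Langerhans cells depend, measured 38.4, 30.2 and 27.9 CPM in controls, 9.30, 7.89 and 8.02 in MC903 and 29.1, 28.9 and 24.3 with paeonol. Il34 was low in every MC903 library, and the other groups overlapped. It fell by 1.94 on the log2 scale (adjusted p 1.08e-06) and was higher by 1.71 with paeonol than with MC903 alone (adjusted p 1.01e-05). Of the 9 growth factors and receptors listed, 5 rose and 2 fell in MC903 ears, and 5 fell and 1 rose with paeonol. Csf2rb, the chain shared by the receptors for GM-CSF and interleukins 3 and 5, changed by 1.34 and -1.24, and Csf3r, the receptor for G-CSF, by 1.76 and -1.93.

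**Figure D4:**
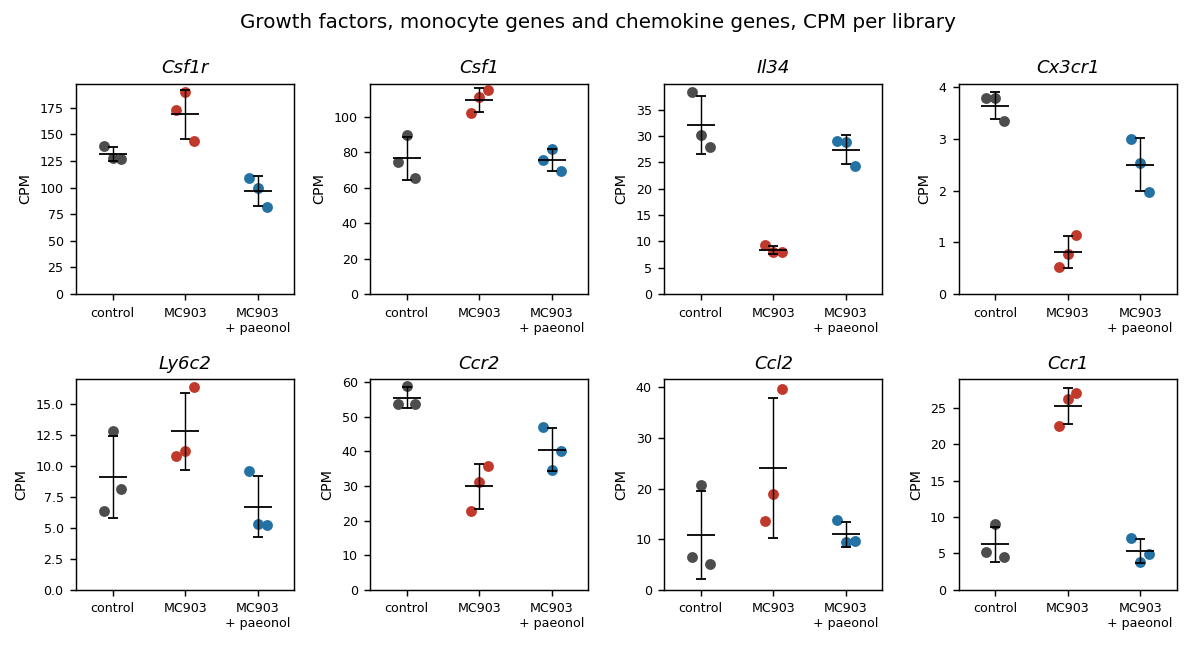
CPM in each library of Csf1r and its ligands Csf1 and Il34, of the monocyte genes Cx3cr1, Ly6c2 and Ccr2, and of the chemokine Ccl2 and the receptor Ccr1, with the mean (bar) and SD (whiskers) of each group of 3. For Il34 and Cx3cr1 every MC903 library lies below all others, for Csf1r, Csf1 and Ccr1 above all others, and for Ccr2 below the controls while overlapping the paeonol group.

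Genes of monocyte entry were split as well. Ccr2, the receptor that brings monocytes out of the marrow and into tissue, measured 53.7, 59.0 and 53.8 CPM in controls, 22.9, 31.1 and 35.7 in MC903 and 46.9, 34.5 and 40 with paeonol. All MC903 libraries were below all controls, and the fall of 0.89 on the log2 scale passed (adjusted p 0.000931), whereas the difference of 0.43 with paeonol did not (adjusted p 0.061). Its ligand Ccl2 measured 5.10 to 20.8 CPM in controls and 13.6 to 39.7 in MC903 and did not pass (1.16, adjusted p 0.183). Of the other chemokines listed, Ccl12 changed by 2.05 (adjusted p 0.00708) and -1.82 (0.0199), and Ccl8 by 1.63 (0.00119) and -2.07 (0.000786). Ccl7 passed in neither comparison (1.28, adjusted p 0.077, then -0.98, adjusted p 0.197). Cx3cl1 changed by -0.48 with MC903 (adjusted p 0.00421), and its 0.25 with paeonol did not pass (0.118). Ccr1, a receptor of myeloid cells, changed by 2.01 and -2.25, Itgb2, the partner chain of CD11b, by 0.81 and -1.38, and Vcam1, the vessel adhesion molecule, by 1.09 and -1.79. In all, 6 of 13 recruitment genes rose and 3 fell in MC903 ears, where 23% of all genes tested rose and 23.8% fell. With paeonol against MC903, 6 of the 13 fell, against 14.3% of all genes.

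Genes through which type 2 cytokines act on macrophages gave mixed results. Il4ra, the receptor chain for interleukins 4 and 13, measured 34.6, 69.3 and 34.1 CPM in controls, 165, 186 and 219 in MC903 and 65.5, 64.2 and 56.8 with paeonol (2.05, then -1.61). Stat6, which relays that signal, changed by 0.67 and -0.46, Il10, which restrains macrophages, by 2.72 and -2.21 at levels of at most 4.81 CPM, and Pparg by -0.89 and 0.36. Of the 10 listed, 4 rose and 2 fell with MC903, and 4 fell and 2 rose with paeonol. Il4 and Il13 lay at or under 1.13 CPM in all libraries and passed in no comparison.

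Further genes of macrophages, listed beside the members, moved like them in MC903 ears and with paeonol against MC903. Of 37, 22 rose and 15 did not pass in MC903 ears. With paeonol against MC903, 33 fell and 4 did not pass. The median changes were 0.84 and -1.03. With paeonol against control they stayed nearer to control than the members. There 8 were lower (14.5% of all genes), 3 higher (16.3%) and 26 did not pass, with a median of -0.36. Their sums in the paeonol libraries were 1.06, 0.971 and 0.908 times the control mean, against 0.867, 0.713 and 0.565 for the members. Siglec1, the sialic acid receptor CD169, measured 4.27 to 5.02 CPM in controls, 29.6 to 33.6 in MC903 and 5.27 to 10.4 with paeonol (2.77, adjusted p 2.25e-06, then -1.95, adjusted p 5.76e-05). Clec10a, a galactose-binding lectin, changed by 1.37 and -1.73, Stab1, a scavenger receptor, by 1.32 and -1.34, and Timd4, a receptor for dying cells, by 1.70 and -2.69.

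Lysosomal and lipid genes and classical activation genes, which many cells share, were less uniform. Of 18 lysosome and lipid handling genes, 9 rose and 5 fell with MC903, and 8 fell and 3 rose with paeonol. Spp1 (osteopontin) changed by 2.5 and -1.04, Fabp5, a fatty acid carrier abundant in epidermis, by 3.20 and -1.37, while Lpl, the lipase of fat and macrophages, fell by 1.18 on the log2 scale with MC903 and its 0.13 with paeonol did not pass. Cathepsin B (Ctsb), Cd63 and Npc2 changed by 0.70, 0.58 and 0.63 and then by -0.83, -0.89 and -0.68. Of 10 classical activation genes, 5 rose with MC903 and 4 fell with paeonol, and the others did not pass. Il1b measured 8.37 to 16.2 CPM in controls, 33.6 to 45.3 in MC903 and 5.41 to 7.51 with paeonol (1.72, then -2.62), and Ptgs2, cyclooxygenase 2, changed by 4.41 and -2.65. The co-stimulator Cd80 changed by 1.87 and -1.28, and the receptor antagonist Il1rn rose by 0.65 with MC903 while its 0.14 with paeonol did not pass (adjusted p 0.162).

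Markers of other cells moved in these ears too, and their values stand beside the macrophage result. Over all genes tested, 23% rose and 23.8% fell with MC903, and some of these lists lay near those shares. Ptprc, which encodes the leukocyte antigen CD45, measured 54.5 to 71.6 CPM in controls and 50.3 to 58.9 in MC903 and did not pass (-0.13, adjusted p 0.41). The 6 pan-leukocyte genes summed to 254 to 307, 264 to 344 and 215 to 258 CPM. Of these 6, 3 rose with MC903 and 3 did not pass. With paeonol against MC903, 3 fell and 3 did not pass. Their median changes were 0.12 and -0.43. Arhgdib, the other of the 2 most abundant genes of that list, is not described here. Of 9 T cell markers 3 fell and 3 rose with MC903, and the 2 most abundant, Trdc (-2.91) and Cd3g (-1.53), fell. Of 14 dendritic and Langerhans cell genes 5 fell and 2 rose; Epcam fell by 1.68 on the log2 scale and Mgl2 by 1.00. Mast cell genes had 4 of 9 higher and 2 lower, and of their 2 most abundant, Cma1 rose by 0.93 and Mcpt4, at 0.26, did not pass (adjusted p 0.309). The B cell genes Cd79b (0.25, adjusted p 0.682) and Jchain (0.09, adjusted p 0.937) lay at or under 4.07 CPM and did not pass. Eosinophil genes summed to at most 1.02 CPM, with Siglecf at or under 0.2 CPM and Ccr3 at or under 0.672.

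Neutrophils carry Itgam, Chil3, Fcgr4 and Lyz2 as well. Of 11 neutrophil genes tested, 5 rose with MC903 (Cxcr2, Csf3r, Mmp8, Retnlg and Stfa2) and 1 fell. Csf3r measured 5.92 to 6.41 CPM in controls and 19.5 to 23.1 in MC903, and Cxcr2 1.98 to 4.69 and 8.33 to 11.5 CPM. The surface marker Ly6g and the granule genes Ngp and Elane lay at or under 0.345 CPM in every library, Camp and Mpo at or under 0.656, and Ltf reached 2.03 CPM with paeonol and 0.869 in the other groups. The list of 14 summed to 206 to 438 CPM in controls, 626 to 756 in MC903 and 367 to 450 with paeonol. In MC903 libraries most of that sum was Stfa2, at 296 to 323 CPM, with S100a8 and S100a9, which inflamed keratinocytes also make and which did not pass (0.67, adjusted p 0.317, and 0.27, adjusted p 0.662). Stfa2, at 1.5 to 4.1 CPM in controls and 21.4 to 76.2 with paeonol, Mmp8 and Retnlg were singled out after their values were seen; Mmp8 was at 2.96 to 3.45 CPM and Retnlg at 2.09 to 2.51 in MC903, and both at or under 0.795 CPM elsewhere. The part of neutrophils in the member changes was not tested.

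**Figure D5:**
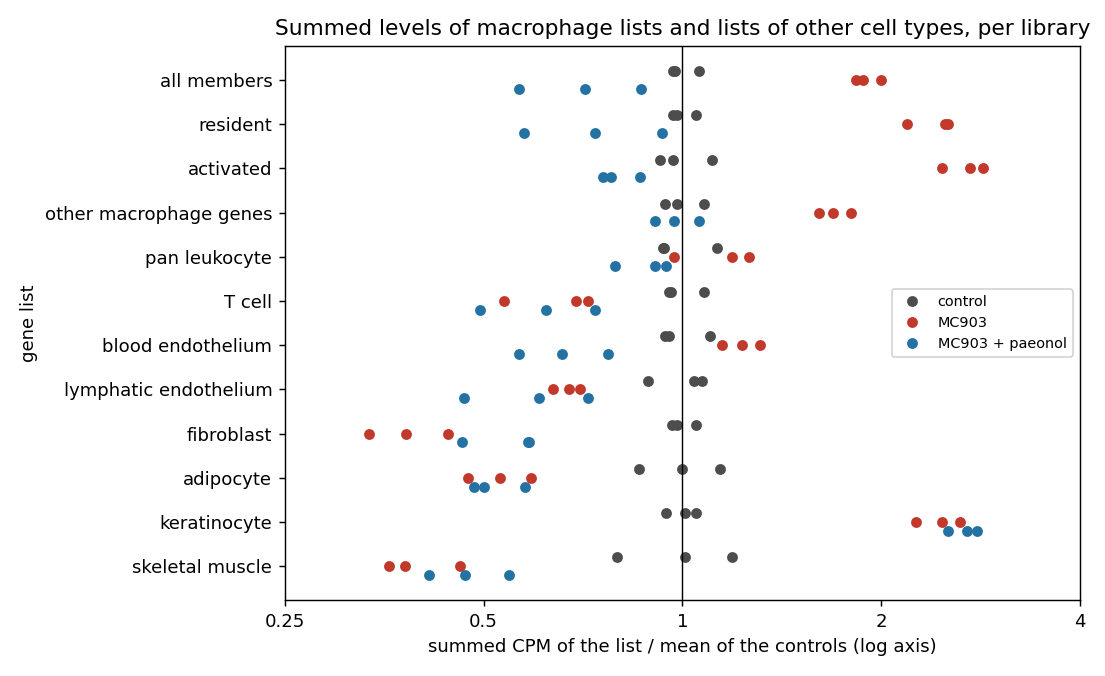
Summed CPM of each gene list in each library, divided by the mean of the controls, on a log axis. All members lie at 1.83 to 2.00 in MC903 and 0.565 to 0.867 with paeonol; keratinocyte markers are at 2.26 to 2.63 in MC903 and 2.53 to 2.80 with paeonol, and skeletal muscle markers at or under 0.547 in both.

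Structural cells shifted in both treated groups. Keratinocyte markers rose with MC903 for 5 of 8 genes, among them Krt14 (1.3), and Krt5 fell by 0.20 on the log2 scale, while Krt10 did not pass (-0.17, adjusted p 0.816), and their sum stayed high with paeonol at 42924 to 47464 CPM. Fibroblast markers fell for 5 of 7 genes and rose for Pdgfra (0.48), with Col1a1 lower by 1.87 and Col1a2 by 1.92 (changes -1.87 and -1.92), and adipocyte markers fell for 7 of 7, with a median of -2.36, from -3.15 for Plin1 to -0.52 and -0.51 for the most abundant, Fabp4 and Lipe. Of the most abundant lymphatic genes, Ccl21a fell by 1.35 on the log2 scale and Mmrn1, at -0.04, did not pass; of the melanocyte genes Mitf rose by 0.30 and Dct, at 0.27, did not pass. Of blood vessel markers, 6 of 6 fell against MC903 with a median of -0.82, Pecam1 from 107 to 117 to 46.8 to 70.2 CPM and Plvap from 88.2 to 110 to 39.6 to 46.9. In MC903 ears 1 of those 6 rose, Plvap, and 1 fell, Kdr (-0.41). Of 7 osteoclast genes, which macrophages can share, 5 rose with MC903 and 4 fell with paeonol, among them Acp5 (0.97, then -1.0) and Mmp9 (2.63, then -3.71), while the calcitonin receptor Calcr was at or under 0.479 CPM.

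Skeletal muscle genes of the ear were lower in both treated groups. Of 20 muscle genes, 19 were lower in MC903 than in control and all 20 lower with paeonol than in control, with sums of 7132 to 10654 CPM in controls, 3218 to 4119 in MC903 and 3690 to 4892 with paeonol; Myh1 and Atp2a1 were the most abundant. With the mean muscle level as a covariate, 1 member, Arg1, passed as higher in MC903 than in control. The members' median difference was 0.46 with the covariate against 0.88 without it, and 27 of 35 differences were above 0, against 32 without it. C1qa (1.51, then 1.47) and Cd14 (1.41, then 1.33) kept the size of their difference, whereas Ctss (0.94, then 0.19) did not. With the covariate in edgeR none of these 3 passed (adjusted p 0.132, 0.188 and 0.884). They were chosen after their values were seen. Members lower with paeonol than with MC903 numbered 28. That covariate and the group share most of their variance (R squared 0.911), so muscle content and MC903 treatment cannot be told apart in the first comparison. Scaling by library totals, which moves the median gene by -0.205 in MC903 against control, left 21 members higher and the genes called at 3402 higher and 7224 lower, against 5044 and 5215 with TMM; for paeonol against control it gave 2155 higher and 5354 lower, against 3578 and 3187.

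Some members share sequence with other genes. Itgam shares 3450 exon bases on its own strand with the predicted gene Gm49368, which held at most 0.813 CPM in MC903 libraries and 2.03 in the third paeonol library. On the opposite strand, Csf1r overlaps Hmgxb3 over 873 exon bases, Folr2 overlaps Gm10602 over 975, Fcgr2b overlaps Gm38204 over 155 and Cx3cr1 overlaps Gm33858 over 78. The libraries were made strand-specific with dUTP, but whether the counting used strand was not stated in those sources, so reads of these stretches cannot be assigned with certainty. Hmgxb3 changed by 0.40 and -0.40. Gm10602 fell by 0.53 on the log2 scale with MC903 and Gm33858 by 1.65, and their -0.19 and 0.64 with paeonol did not pass. Of the other related genes, Lyz1 fell by 0.69 with MC903 while Lyz2 rose, and Clec7a is annotated as a polymorphic pseudogene in GENCODE M21.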

How the data were processed

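Members and lists were chosen with earlier results of these data known. The authors deposited 1 matrix of whole numbers per gene, taken here as estimated counts, unscaled between libraries. The submitters' processing notes name HISAT2 2.0.4, StringTie 1.3.4d, cutadapt and the build GRCm38. Not given in the sources used here: what each tool did, which gene models were used and how strand was handled. The value 4 was 1.90 to 2.23 times as frequent as its neighbours, so low values are coarse; where every library of a group lacks counts, 12 counts per library serve as the floor. Symbols and exon lengths came from GENCODE M21 (55141 features matched).

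All 9 libraries were fitted in edgeR 4.0.16 (R 4.3.3) with TMM scaling (factors 0.942 to 1.09), filterByExpr (minimum count 10, minimum total count 15) and a robust quasi-likelihood fit with 1 coefficient per group; tests were two-sided. The common coefficient of biological variation was 0.214, and each SE was derived from the log2 change and its F statistic. Groups came from the treatment label and columns were joined by library name. Simulated data for MC903 against control (21260 genes) held 67 genes changed 1.5-fold, 67 changed 2-fold and 66 changed 4-fold. Of these, 41.8%, 41.8% and 77.3% were recovered, and 0.038% of 21066 unchanged genes were called. Far more genes were called in the data (10259 of 21925), so the adjustment of p differs and these rates do not carry over. Replicates of a group differed by more than counting noise (chi-square per degree of freedom 6.51 to 14.4 on counts divided by 4).

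Named genes were all 35 members, from each of 6 related lists the 3 genes of lowest p in MC903 against control and in paeonol against MC903, Csf1, Il34, Ccl2 and Ccr2, paralogs of members, and the 2 most abundant genes of each list of another cell type. Markers added beside a member (Prox1, Pdpn, Krt6a, Krt16 and the granule genes) came from those lists and were chosen after their values were seen. So were Il4, Il13 and Calcr, and the chemokines Ccl7, Ccl8, Ccl12 and Cx3cl1. Alternatives were DESeq2 1.42.0, its size factors, library totals, no filter, a mean CPM of 1, fits of 2 groups, at least 2-fold, the replicate block, counts divided by 4, a muscle covariate and each library left out.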

Additional observations from a re-analysis of the deposited data

How the results depend on the processing

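Across alternatives, the counts of members that rose with MC903 or fell with paeonol against MC903 stayed within 1.5 times of 27 and 31, except for the rise at a minimum of 2-fold (14) and with the muscle covariate (1). Members lower in MC903 numbered 0 with that covariate, though Cx3cr1 (-3.34, adjusted p 0.0606) and Retnla (-2.65, adjusted p 0.622) differed by about as much or more; Adgre1 (-0.03, adjusted p 0.986) and Lyz2 (-0.05, adjusted p 0.976) changed sign. Against control, members lower with paeonol numbered 2 at 2-fold, 7 to 20 with 1 library left out, and 1 with the muscle covariate, under which the members' median was -0.85 against -0.45 without it. The 1 member higher (Arg1) numbered 0 with library totals, no filter or the replicate block, and 0 to 1 with 1 library left out. Members higher with paeonol against MC903 numbered 1 to 2 with 1 library left out. Genes called at 2-fold were 3733, 1858 and 1257 in the 3 comparisons, and with the muscle covariate 1176 for MC903 and 299 for paeonol against control; the causes were not tested beyond the construction of each setting. Replicate numbers did not pair the libraries: same-numbered libraries had correlations of deviations of -0.0113 to 0.04, and 3 of 9 matched best with their own number. With the replicate block, 27 members rose with MC903 (Gpnmb gained, adjusted p 0.00276, and Aif1 lost, 0.0652) and 30 fell with paeonol (Fcgr4 lost, 0.0868); against control Cd163 (0.0262) and Retnla (0.0244) passed as lower and Arg1 (0.0862) did not pass. Of the changes that kept no call under either setting, 21 had another sign. Low values such as those of Retnla, Fcgr4 and Marco limit precision.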
